A study of Mus musculus with 6 samples.

Results

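Toll-like receptors, their adaptor Myd88 and the co-receptor Cd14 were followed in sorted myeloid progenitors of MYB knockdown mice and wild type mice. The members were 10 genes chosen by name, Tlr1, Tlr2, Tlr4, Tlr6, Tlr7, Tlr8, Tlr9, Tlr13, Myd88 and Cd14, of 19938 genes that had a probe set with exactly 1 symbol. Each member had 1 such probe set, and all 10 passed the filter that left out the dimmest 30% of genes by mean over all arrays. Each of 6 Affymetrix arrays held the RNA of 1 mouse, from 3 MYB knockdown mice and 3 wild type mice. All mice of both groups were C57BL6 males, 4 weeks old, and no group was treated. The sorted cells carried Kit and CD11b and had low levels of lineage markers (named K11bL by the labels), came from bone marrow, and are described as myeloproliferative in the title of the series. The labels do not say how Myb was lowered, in which cells, or which lineage markers were used.

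Toll-like receptors are membrane proteins that bind conserved molecules of microbes through a leucine-rich ectodomain. Tlr1, Tlr2, Tlr4 and Tlr6 sit at the cell surface and bind microbial lipids and lipopeptides, while Tlr7, Tlr8, Tlr9 and Tlr13 sit in endosomes and bind nucleic acids. All of these receptors signal through Myd88, which recruits IRAK kinases and leads to the activation of NF-kB and IRF transcription factors. In bone marrow, Toll-like receptors are found on mature myeloid cells and also on progenitors, where their ligands are known to push cells towards myeloid fates.

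The deposited values are on the log2 scale, 1 per probe set and array, with array medians between 5.87 and 5.99. Knockdown mouse 3 stood apart from the other arrays: its correlations over all probe sets with knockdown mice 1 and 2 were 0.977 and 0.984, while that between mice 1 and 2 was 0.994. Values with and without that mouse are therefore given for each member. Myb was lower in the knockdown, by 0.30 ± 0.06 (SE) on the log2 scale (adjusted p = 0.0196), and that call was lost without knockdown mouse 2 or any 1 wild type mouse (adjusted p up to 0.0963). It was also lost on all 6 arrays after median centring (difference -0.23, adjusted p = 0.074) and without the trend in the variance (0.0662). Of the sort markers, Kit was at 10.22 ± 0.01 in knockdown and 10.50 ± 0.10 in wild type, and Itgam (CD11b) at 9.45 ± 0.39 and 9.84 ± 0.05 (SD, n = 3 each). Neither passed the test on all arrays (adjusted p = 0.06 and 0.202), but Kit passed without knockdown mouse 3 (0.0145), after quantile normalization (0.0405) and with the filter at 50% (0.0497), Itgam without knockdown mouse 1 (0.0239), and both with array weights. These are bulk samples of sorted cells, so fewer cells that express a gene and less RNA per cell cannot be told apart.

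The comparison of MYB knockdown with wild type asks which receptors of this system changed with lower Myb. Of the 10 members, 5 rose, 1 fell and 4 did not pass the test (limma, fitted across 13956 genes, Benjamini-Hochberg adjusted p under 0.05, here "called"). Among all genes tested, 6.12% were called higher and 5.48% lower, or 11.6% in either direction. After median centring of the arrays 1433 genes were higher and 593 lower, against 854 and 765 on the values as deposited, and the 6 calls among the members were the same under that scaling. The groups did not overlap for 8 of the 10 members, beside 34.3% of all genes. The median difference of the members was 0.50 on the log2 scale, beside 0.02 over all genes. Because the members were chosen with earlier results of these data known, these contrasts are no test of the members against other genes. The differences ran from -1.63 for Tlr4 to 1.64 for Tlr13.

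**Figure D1:**
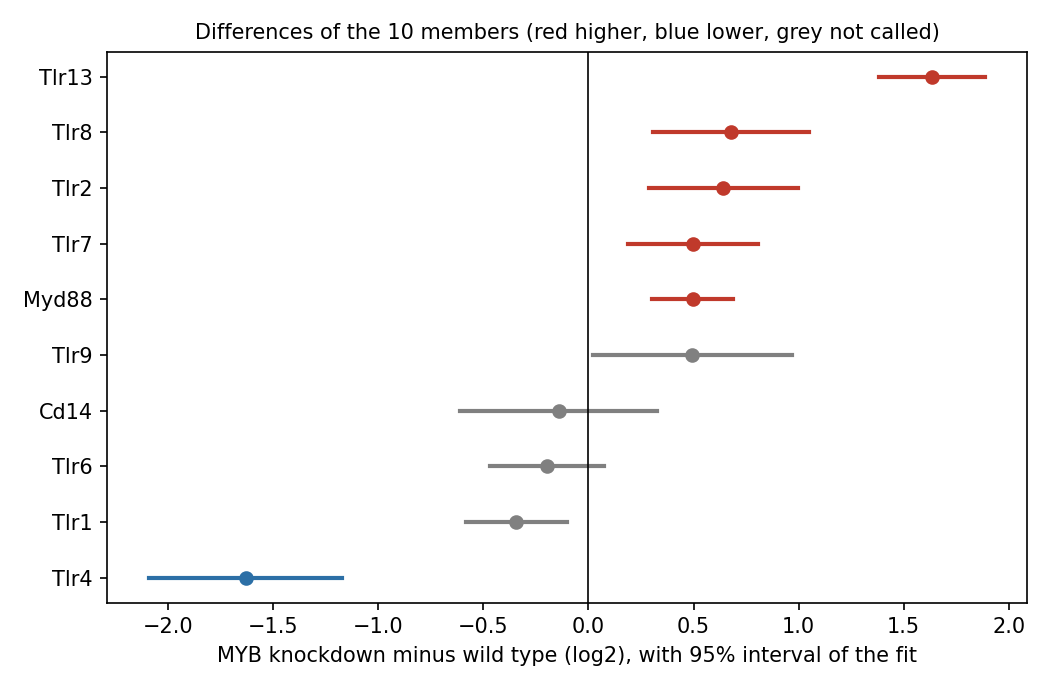
Difference of each of the 10 members between MYB knockdown and wild type on the log2 scale (dot) with the 95% interval of the fit (line), n = 3 mice per group. Tlr13 lies highest at 1.64 and Tlr4 lowest at -1.63, and the 4 grey genes did not pass the test.

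Calls also moved with single mice. With knockdown mouse 3 left out, the same 5 members were called higher and Tlr4 lower. Without knockdown mouse 2 or any 1 wild type mouse, 2 members were called higher, Tlr13 and Myd88. Without knockdown mouse 1, 3 were called higher (Tlr8, Tlr13 and Myd88) and 3 lower (Tlr1, Tlr4 and Cd14). Each such fit rests on fewer mice, which by itself can end a call. Over the 6 fits without 1 mouse, the share of all genes called lay between 4.75% and 27.2%, beside 11.6% on all arrays. The highest share came from dropping knockdown mouse 3. That fit called 2397 genes higher and 1397 lower, against 854 and 765 with every array.

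Among the surface receptors, Tlr4 fell. Tlr4 binds bacterial lipopolysaccharide together with its partner MD-2. Its log2 values were 6.03, 5.69 and 5.40 in knockdown mice, against 7.70, 7.09 and 7.24 in wild type mice. The groups lay more than 1 log2 unit apart, and the highest knockdown value was still below every wild type value. Tlr4 fell by 1.63 ± 0.20 (SE), to 0.323 times the wild type level on the linear scale (adjusted p = 0.0015, 95% interval -2.09 to -1.17). It was called lower in every one of the 14 alternative settings, with differences between -1.79 and -1.45. It fell by 1.48 without knockdown mouse 3, which had the lowest value (adjusted p = 0.000444).

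Tlr2, which binds lipopeptides as a heterodimer with Tlr1 or Tlr6, moved the other way. Its values were 8.19, 8.28 and 7.71 in knockdown mice, against 7.43, 7.35 and 7.48 in wild type mice. All knockdown mice were above all wild type mice, with mouse 3 the closest to them. Tlr2 rose by 0.64 ± 0.15 (SE) or 1.56-fold (adjusted p = 0.0333), and by 0.82 without knockdown mouse 3 (adjusted p = 0.000123). The call was lost without wild type mouse 1, 2 or 3 (adjusted p = 0.126, 0.142 and 0.1004) or knockdown mouse 1 or 2 (0.0746 and 0.113).

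The partners of Tlr2 did not rise with it. Tlr1 stood at 6.31, 6.09 and 6.06 in knockdown mice, against 6.56, 6.45 and 6.49 in wild type mice. Every knockdown value was below every wild type value, but the difference of -0.34 ± 0.10 did not pass the test (adjusted p = 0.0739). It was -0.30 without knockdown mouse 3 (adjusted p = 0.0541), and it passed without knockdown mouse 1 (0.0341, difference -0.42) and with array weights (0.0106). Tlr6 stood at 6.55, 6.30 and 6.17 in knockdown mice, against 6.61, 6.50 and 6.50 in wild type mice. These groups overlapped at knockdown mouse 1, and the difference of -0.20 ± 0.12 had an adjusted p of 0.362, with a 95% interval from -0.47 to 0.08. Without knockdown mouse 3 it was -0.11 (adjusted p = 0.46). Tlr1 and Tlr6 are close relatives and direct neighbours, with 0 protein-coding genes between them in the RefSeq order of GRCm38.p6, and whether their probes separate the transcripts was not tested.

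Cd14, which passes lipopolysaccharide on to Tlr4 and MD-2, was the most variable member among knockdown mice. Its values were 6.21, 5.37 and 5.43 in knockdown mice, against 5.80, 5.79 and 5.85 in wild type mice. Mouse 1 was above all wild type mice and mice 2 and 3 were below all of them. The difference was -0.14 ± 0.20 (adjusted p = 0.746, 95% interval -0.61 to 0.33). It was -0.41 without knockdown mouse 1, where it was called (adjusted p = 0.0255), 0.01 without knockdown mouse 2 and -0.02 without knockdown mouse 3.

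**Figure D2:**
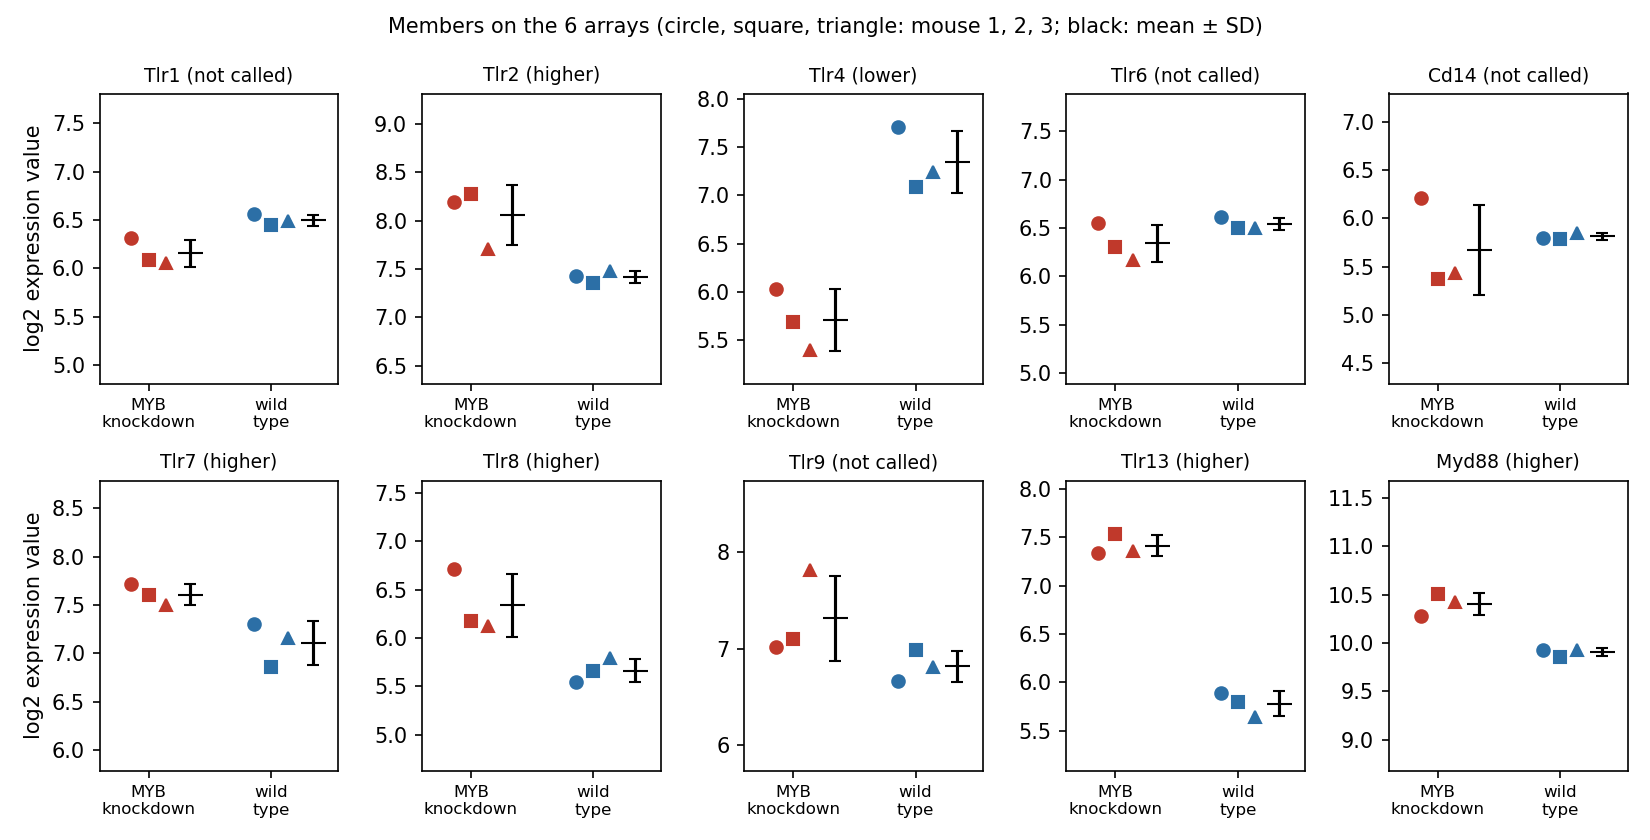
Log2 expression value of each of the 10 members in every mouse, MYB knockdown (red) left of wild type (blue), with the mean ± SD of 3 mice in black, and each panel spanning 3 log2 units. The groups are far apart for Tlr4 and Tlr13, while in Cd14 the knockdown mice lie on both sides of the wild type mice.

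Among the endosomal receptors, Tlr13 rose in each knockdown mouse by a similar amount. Tlr13 recognises bacterial ribosomal RNA in mice. Its values were 7.34, 7.54 and 7.36 in knockdown mice, against 5.89, 5.80 and 5.64 in wild type mice. The groups were separated by more than 1 log2 unit, while the knockdown mice spanned 0.19 and the wild type mice 0.25. Tlr13 rose by 1.64 ± 0.11 (SE) or 3.11-fold (adjusted p = 8.67e-05), and it was called in all 14 alternative settings, with differences between 1.57 and 1.77. The rise was 1.66 without knockdown mouse 3 (adjusted p = 1.54e-05). All 3 wild type values lay below the medians of their arrays, and all 3 knockdown values above.

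Tlr7 and Tlr8, receptors for single-stranded RNA, are direct neighbours, with 0 protein-coding genes between them in the RefSeq order, and both rose. Tlr7 stood at 7.71, 7.61 and 7.50 in knockdown mice, against 7.31, 6.86 and 7.15 in wild type mice. All knockdown mice were above the wild type mice, and the wild type group was the more spread. Tlr7 rose by 0.50 ± 0.14 (SE) or 1.41-fold, close to the threshold (adjusted p = 0.0496), and by 0.55 without knockdown mouse 3 (0.0112). The call was lost without wild type mouse 1, 2 or 3 (adjusted p = 0.0712, 0.192 and 0.144) or knockdown mouse 1 or 2 (0.103 and 0.133), and on all arrays without the filter on dim genes (0.0619).

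Tlr8 stood at 6.71, 6.18 and 6.13 in knockdown mice, against 5.55, 5.65 and 5.79 in wild type mice. Knockdown mouse 1 was the highest, and the groups did not overlap. Tlr8 rose by 0.68 ± 0.16 (SE) or 1.60-fold (adjusted p = 0.0326). Without knockdown mouse 1 the rise was 0.49 (adjusted p = 0.0262), and without knockdown mouse 3 it was 0.78 (0.00562). The call was lost without wild type mouse 1, 2 or 3 (adjusted p = 0.142, 0.124 and 0.0737) or knockdown mouse 2 (0.0553).

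Tlr9, the receptor for unmethylated CpG DNA, did not pass the test. Its values were 7.02, 7.10 and 7.82 in knockdown mice, against 6.66, 6.98 and 6.81 in wild type mice. Mouse 3 stood well above the other knockdown mice, which were just above the highest wild type mouse. The difference was 0.49 ± 0.21 (adjusted p = 0.177, 95% interval 0.02 to 0.97) and 0.24 without knockdown mouse 3 (0.129), and it was called in 0 of the 14 alternative settings. Tlr9 is an abundant receptor of plasmacytoid dendritic cells and B cells. Of the 8 tested markers of plasmacytoid dendritic cells, 7 also had their highest value of all arrays in knockdown mouse 3, as had 2 of 8 B cell markers and 33.5% of all genes, counts that were chosen after the values were seen. Their part in the value of Tlr9 was not tested.

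Myd88, the adaptor that all members of the receptor group use, rose. Its values were 10.28, 10.50 and 10.42 in knockdown mice, against 9.93, 9.86 and 9.93 in wild type mice. The wild type mice lay within 0.072 of each other, and all knockdown mice were above them. Myd88 rose by 0.50 ± 0.08 (SE) or 1.41-fold (adjusted p = 0.0074). It was called in all 14 alternative settings, although only just without wild type mouse 2 (adjusted p = 0.0489), and without knockdown mouse 3 it rose by 0.49 (0.00146).

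The promoters of the pair of members called higher in every setting are shown so that their letters can be read beside these values. Each window runs from 250 bases before to 50 bases after the start of the gene, on the strand of the gene, from the RefSeq promoter table of GRCm38.p6. Capitals mark matches on either strand to AACNG, a core bound by MYB proteins, and to GGAAGT, a core bound by ETS factors such as PU.1. The Tlr13 window is chrX:106143025-106143324 on the plus strand and the Myd88 window chr9:119339969-119340268 on the minus strand.
Tlr13: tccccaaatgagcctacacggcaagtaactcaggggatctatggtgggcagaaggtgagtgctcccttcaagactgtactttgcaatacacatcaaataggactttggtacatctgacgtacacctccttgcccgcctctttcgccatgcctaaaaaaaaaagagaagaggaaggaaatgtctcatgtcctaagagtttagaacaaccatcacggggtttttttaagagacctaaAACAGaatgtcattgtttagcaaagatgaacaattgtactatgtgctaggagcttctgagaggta
Myd88: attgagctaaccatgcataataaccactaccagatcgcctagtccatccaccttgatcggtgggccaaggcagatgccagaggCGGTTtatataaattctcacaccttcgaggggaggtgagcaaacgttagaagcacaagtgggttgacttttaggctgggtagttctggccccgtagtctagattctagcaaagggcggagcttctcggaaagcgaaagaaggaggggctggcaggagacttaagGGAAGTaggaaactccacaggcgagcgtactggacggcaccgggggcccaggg
Tlr13 held 1 match to AACNG and 0 to GGAAGT, and Myd88 held 1 of each, with 0 overlapping matches. The table matched 7 of the 10 members, all but Tlr4, Tlr7 and Cd14. Of those 7, 6 held AACNG and 5 held GGAAGT in at least 1 window. Of all 32851 windows of this length, 80.3% held AACNG and 23.8% held GGAAGT. These shares are per window, while the members were counted per gene over 9 windows, so they are not like for like. A match is a run of letters and not a measured binding site.

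The members also differed in how evenly the knockdown mice shared a change. For Tlr13 the shift from the wild type mean was 1.56, 1.76 and 1.58 in knockdown mice 1, 2 and 3, and for Myd88 it was 0.38, 0.60 and 0.52. For Tlr4 it was -1.31, -1.65 and -1.94, and for Tlr2 it was 0.77, 0.86 and 0.29. Within the knockdown group, 6 of the 10 members were highest in mouse 1, 3 in mouse 2 and 1, Tlr9, in mouse 3. That split was not counted over all genes, so it is not shown to be particular to the members. For 8 of the 10 members the knockdown group spanned a wider range than the wild type group, beside 79.9% of all genes.

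**Figure D3:**
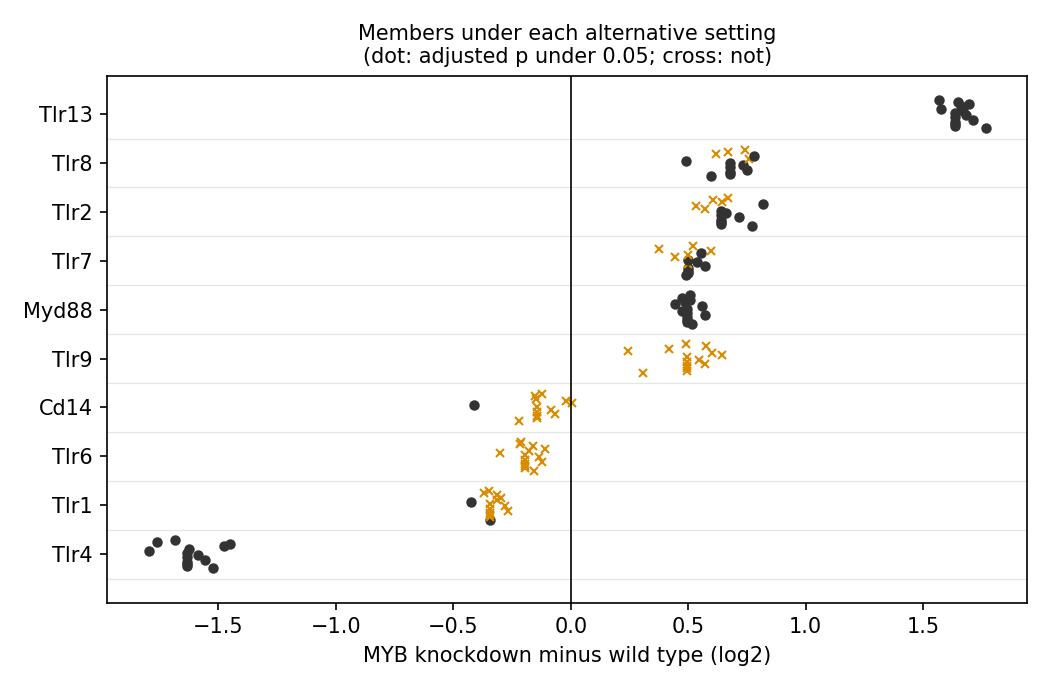
Difference of each member between MYB knockdown and wild type (log2) under each alternative setting, as a dot where the adjusted p was under 0.05 and a cross where it was not. Tlr4, Tlr13 and Myd88 have dots only, and Tlr6 and Tlr9 crosses only.

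Of the other Toll-like receptors, Tlr3 and Tlr12 had a probe set of their own. Tlr3, an endosomal receptor for viral RNA that signals through Ticam1 and not through Myd88, stood at 5.67, 5.54 and 5.57 in knockdown mice, against 6.42, 6.11 and 6.32 in wild type mice. The groups did not overlap, and Tlr3 fell by 0.69 ± 0.11 (adjusted p = 0.00495). It was called lower without any 1 mouse. Its mean lay at percentile 22.1 of the genes tested, and the filter at 50% removed it. Tlr12, which binds a profilin of protozoan parasites in mice, stood at 6.04, 5.88 and 5.96 in knockdown mice, against 5.72, 5.72 and 5.51 in wild type mice. Its difference of 0.31 ± 0.10 did not pass the test (adjusted p = 0.0869) but did after quantile normalization (0.0394), median centring (0.037) and with array weights (0.0173).

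The proteins that present ligands to these receptors, or bring the receptors to endosomes, moved in both directions. Of 16 tested genes of this list, 2 rose and 4 fell, beside 6.12% and 5.48% of all genes, with a median difference of -0.11. Lbp, which carries lipopolysaccharide to Cd14, fell by 0.59 ± 0.07 (adjusted p = 0.00139), with values of 10.42, 10.27 and 10.37 in knockdown mice, against 10.98, 10.92 and 10.91 in wild type mice. Cd180, a relative of Tlr4 that lacks the signalling domain, rose by 0.80 ± 0.10 (adjusted p = 0.00205), with values of 10.75, 10.75 and 10.96 in knockdown mice, against 9.83, 10.12 and 10.11 in wild type mice. Both were called without any 1 mouse. Ly96, which encodes MD-2, the partner of Tlr4, was named after its values were seen: it differed by 0.50 ± 0.15, opposite in sign to Tlr4, and did not pass the test (adjusted p = 0.0674), although all knockdown values (8.72, 8.58 and 8.72) were above the wild type values (8.36, 7.84 and 8.31). Ly96 passed without knockdown mouse 3 (adjusted p = 0.036), after median centring, with the replicate number as a block and with array weights.

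Unc93b1, the chaperone that carries endosomal receptors from the endoplasmic reticulum, fell by 0.38 ± 0.10 (adjusted p = 0.0387), while Tlr7, Tlr8 and Tlr13 rose. Of the enzymes of the endosome, Ctss, cathepsin S, rose by 0.51 ± 0.13 (adjusted p = 0.0423) and Ctsb, cathepsin B, fell by 0.40 ± 0.11 (0.046). Tcirg1, a subunit of the proton pump that acidifies endosomes, fell by 0.56 ± 0.11 (adjusted p = 0.0164). These last 4 calls were lost without knockdown mouse 2 or any 1 wild type mouse, and those of Unc93b1 and Ctss also without knockdown mouse 1 (highest adjusted p = 0.17, 0.162, 0.176 and 0.0894 for Unc93b1, Ctss, Ctsb and Tcirg1). On all 6 arrays the call of Unc93b1 was lost after median centring and with the replicate number as a block (adjusted p = 0.0687 and 0.064). That of Ctsb was lost after median centring, without the filter on dim genes and without the trend (0.0977, 0.0545 and 0.0701), and that of Ctss without the filter (0.0504). After median centring the list had 2 falls. Without knockdown mouse 3, 4 genes of the list rose and 7 fell, where 27.2% of all genes were called in either direction. With knockdown mouse 2 or any 1 wild type mouse left out, the counts were 1 and 1, beside 4.75% to 6.53% of all genes called. With knockdown mouse 1 left out they were 1 and 4, beside 11.4%.

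Of 19 adaptors and kinases of the signalling chain 1 rose and 1 fell, a share near the 11.6% of all genes called, with a median of -0.11. Ikbke, a kinase that acts on IRF factors, fell by 1.28 ± 0.15 (adjusted p = 0.00137), with values of 7.83, 7.79 and 7.29 in knockdown mice, against 9.03, 8.87 and 8.86 in wild type mice, and it was called without any 1 mouse. Tab2, which links TRAF6 to the kinase TAK1, rose by 0.25 ± 0.07 (adjusted p = 0.0427), a call that with 1 mouse left out was kept only without knockdown mouse 3 (0.00989) and lost without each of the other mice (up to 0.17). On all arrays it was lost with the replicate block, after quantile normalization, without the filter and without the trend (adjusted p = 0.098, 0.0521, 0.0612 and 0.0924). Without knockdown mouse 3, 2 of the list rose and 3 fell, in a fit that called 27.2% of all genes in either direction.

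Of 9 NF-kB and IRF transcription factors limma called 0, while 5 had an unadjusted p under 0.05, where 25.6% of all genes had one. Their median difference was 0.25. Irf5, a factor that Myd88 activates, differed by 0.62 ± 0.17 (adjusted p = 0.0528) and passed without knockdown mouse 1 or 3, with adjusted p down to 0.00973, and on all arrays with the replicate block, after median centring and with array weights. Irf1 differed by 0.25 ± 0.09 (adjusted p = 0.122) and passed without knockdown mouse 3 (0.0312) and with array weights (0.0395). Without knockdown mouse 3, 2 of the list rose, and without knockdown mouse 1, 1 did. Those fits called 27.2% and 11.4% of all genes, in either direction. Of these 9 genes, 7 had their highest value of all arrays in knockdown mouse 3, as had 33.5% of all genes. This count too was chosen after the values were seen.

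Of 18 negative regulators 1 fell, near the 5.48% of all genes called lower, with a median of -0.01. Irak3, the inhibitory IRAK of macrophages, fell by 0.38 ± 0.08 (adjusted p = 0.0233), with values of 9.69, 9.58 and 9.50 in knockdown mice, against 9.99, 9.96 and 9.97 in wild type mice. The call of Irak3 was lost without knockdown mouse 2 or any 1 wild type mouse (adjusted p up to 0.119) and, on all arrays, after median centring and with the replicate block (0.0573 and 0.0511). Trim30a, which promotes the breakdown of TAB proteins, had the smallest p of the genes of this list that were not called. It differed by -0.38 ± 0.12 (adjusted p = 0.0709) and passed without knockdown mouse 3 (0.00922), after quantile normalization (0.0308) and with array weights (0.00799). In the list, 3 fell and 1 rose without knockdown mouse 3, where 27.2% of all genes were called in either direction.

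Of 24 listed cytokine and effector genes that Toll-like receptors are known to induce, 7 lay among the dimmest 30% of genes and were not tested, a share near that of all genes: Il1a, Il6, Il10, Il12b, Cxcl2, Ccl2 and Saa3. Of the 17 tested, 2 rose and 0 fell by limma, also near the 11.6% of all genes called, beside 4 with an unadjusted p under 0.05, and the median was 0.20. Icam1, an adhesion molecule, rose by 0.74 ± 0.11 (adjusted p = 0.00316), with values of 8.09, 8.34 and 8.20 in knockdown mice, against 7.46, 7.43 and 7.52 in wild type mice, and it was called without any 1 mouse. Il1b, interleukin 1 beta, rose by 0.38 ± 0.09 (adjusted p = 0.0363), but its values of 5.24 to 5.34 in knockdown mice and 4.78 to 5.03 in wild type mice were only just past the filter on dim genes, and the call was lost without knockdown mouse 2 or any 1 wild type mouse (adjusted p up to 0.163). Without any 1 wild type mouse, 1 gene of the list rose, in fits that called 4.75% to 5.35% of all genes in either direction.

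Receptors of the IL-1 family, of which the signalling members also use Myd88, fell in part. Of 6 tested genes 3 fell and 0 rose by limma, beside 5.48% and 6.12% of all genes. An unadjusted p under 0.05 was reached by 3, beside 25.6% of all genes. Il1r2, a decoy receptor for IL-1, fell by 1.02 ± 0.12 (adjusted p = 0.00137), with values of 6.64, 6.71 and 6.47 in knockdown mice, against 7.82, 7.49 and 7.59 in wild type mice. Il1rl2, the IL-36 receptor, fell by 1.10 ± 0.21 (adjusted p = 0.0122) and Il1rap, the accessory chain shared by receptors of the family, by 0.82 ± 0.16 (0.0133). Il1r2 was called without any 1 mouse. Il1rl2 lost its call without wild type mouse 1 (adjusted p = 0.0678) and Il1rap without wild type mouse 1 or 2 (up to 0.071), so that without wild type mouse 1 the list had 1 fall. With knockdown mouse 3 left out, 1 gene of the list rose, in a fit that called 27.2% of all genes in either direction.

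Among other pattern recognition receptors 2 of 12 tested genes rose and 1 fell, beside 6.12% and 5.48% of all genes, with a median of -0.02. Clec7a (Dectin-1), a receptor for fungal beta-glucan, fell by 1.24 ± 0.20 (adjusted p = 0.00632), with values of 6.85, 6.37 and 5.96 in knockdown mice, against 7.58, 7.76 and 7.57 in wild type mice, and it was called without any 1 mouse. Clec4e (Mincle), a receptor for mycobacterial glycolipid, rose by 0.62 ± 0.14 (adjusted p = 0.0289), and Pycard (ASC), an inflammasome adaptor, by 0.41 ± 0.11 (0.0435). Those rises were called only without knockdown mouse 3 when 1 mouse was left out, and the highest adjusted p was 0.136 for Clec4e and 0.185 for Pycard. On all arrays the call of Pycard was lost with the replicate block and without the filter (adjusted p = 0.0763 and 0.0545). Without knockdown mouse 3, 3 genes of the list fell, and without knockdown mouse 1, 2 fell. Those fits called 27.2% and 11.4% of all genes, in either direction.

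**Figure D4:**
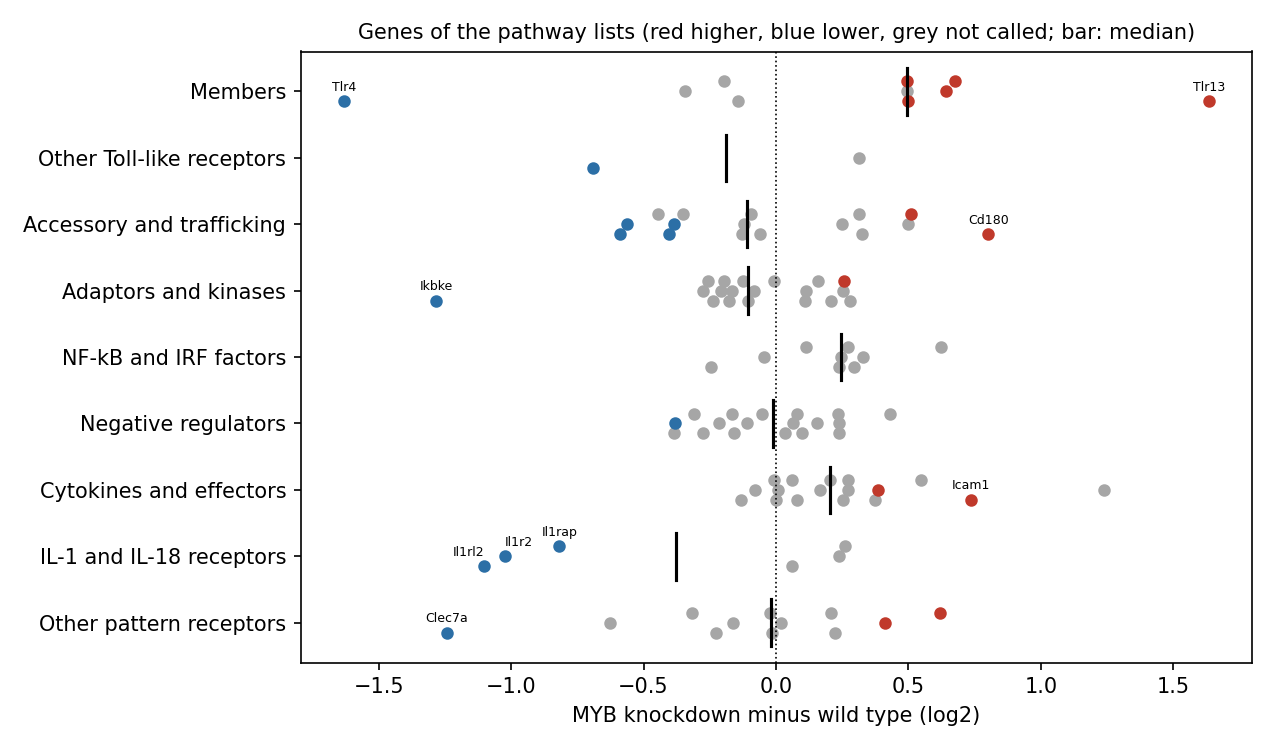
Difference between MYB knockdown and wild type (log2) of every tested gene of each pathway list, 1 dot per gene, red where called higher, blue where called lower and grey otherwise, with the list's median as a bar. Tlr4 and Tlr13 lie farthest from 0, and the NF-kB and IRF factors have no called gene.

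Markers of cell types that carry Toll-like receptors, which include genes of immature stages, did not move as 1 group. Of 11 monocyte and macrophage markers tested, 3 rose and 3 fell, beside 6.12% and 5.48% of all genes. The summed linear signal of the 12 measured lay between 3259 and 3925 in knockdown mice and between 3730 and 4349 in wild type mice. Such a sum weighs bright genes most. F13a1, at 8.09, 8.01 and 6.66 in knockdown mice, was the brightest of the list in wild type mice, at 10.29, 10.64 and 10.35. F13a1, a monocyte transglutaminase, fell by 2.84 ± 0.34, Mrc1, the macrophage mannose receptor, by 1.56 ± 0.25 and Mertk, a receptor for dying cells, by 0.78 ± 0.21, while Cd68, a lysosomal glycoprotein, rose by 1.23 ± 0.18. The other rises, named after their values were seen, were Fcgr1, an Fc receptor for IgG, by 0.76 ± 0.10 (adjusted p = 0.00199), called in all 14 alternatives, and Cx3cr1, the fractalkine receptor, by 0.49 ± 0.10 (0.0194), a call lost when knockdown mouse 2, wild type mouse 1 or wild type mouse 3 was left out. Of 12 neutrophil markers 1 rose and 5 fell, beside 6.12% and 5.48% of all genes. Their sums were 10253 to 16501 in knockdown mice and 25210 to 28291 in wild type mice. Camp, a granule peptide, fell by 3.36 ± 0.36, Ltf, lactoferrin, by 2.32 ± 0.45 and S100a8, a calprotectin subunit, by 1.45 ± 0.15. Mmp8, a collagenase, rose by 3.26 ± 0.36. Of the 12 differences, 10 were negative and 2 positive. The other positive one was that of Cxcr2, at 0.61 ± 0.17, with no overlap of the groups. It fell just short of a call (adjusted p = 0.0504). For Retnlg and Mmp9 the groups overlapped and neither was called (adjusted p = 0.85 and 0.442). These 3 genes were named after their values were seen.

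Of 8 plasmacytoid dendritic cell markers 2 rose and 0 fell by limma, beside 6.12% and 5.48% of all genes. An unadjusted p under 0.05 was reached by 4, beside 25.6% of all genes, and 6 of the 8 differences were positive. The sums were 2779 to 3115 in knockdown mice and 2368 to 2851 in wild type mice. Irf8, the brightest of the list, weighed most in these sums. It stood at 10.57, 10.49 and 10.43 in knockdown mice, against 10.53, 10.91 and 10.79 in wild type mice (difference -0.25, not called). Siglech, a lectin of plasmacytoid dendritic cells, rose by 0.98 ± 0.20 and Tcf4, a transcription factor, by 0.79 ± 0.10. Of 8 tested B cell markers 1 rose and 2 fell, beside 6.12% and 5.48% of all genes. The sums over 10 measured were 1172 to 1253 in knockdown mice and 1327 to 1825 in wild type mice. Igll1, a chain of the pre-B cell receptor, fell by 2.06 ± 0.33 and Ebf1, a B cell factor, by 1.19 ± 0.32. Cd22, a lectin of B cells, rose by 0.53 ± 0.12. In all 4 marker lists, 0 genes were at or under the lower quartile of every array. The calls of Mertk, Ltf, Siglech, Ebf1 and Cd22 were lost when some single mice were left out (highest adjusted p = 0.182, 0.0732, 0.0834, 0.182 and 0.142). Mertk and Cd22 were not called without each wild type mouse in turn, nor Mertk without knockdown mouse 2. On all arrays the call of Mertk was also lost after quantile normalization, after median centring, without the filter on dim genes and without the trend (adjusted p = 0.0567, 0.0613, 0.0526 and 0.0509), and that of Ebf1 without the filter and without the trend (0.0518 and 0.0529). Siglech lost its call when wild type mouse 1 or 2 was left out, and Ltf and Ebf1 lost theirs when knockdown mouse 2, wild type mouse 2 or wild type mouse 3 was. The part of these cell types in the changes of the members was not tested.

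Genes whose profile over the 6 arrays was close to that of Tlr13 were S100a4, a calcium-binding protein, and Emilin2, a matrix glycoprotein. After each gene was centred on its own mean, their root mean square differences from Tlr13 were 0.114 and 0.123 log2 units, the smallest of all genes tested. They rose by 1.73 ± 0.10 and 1.60 ± 0.10. The closest to Tlr4 were Nucb2, a nucleobindin, B4galt6, a galactosyltransferase, and Tnfrsf26, a TNF receptor family member, at 0.118, 0.126 and 0.146 log2 units, and they fell, with differences of -1.53 ± 0.16, -1.68 ± 0.14 and -1.45 ± 0.19. Each of these 5 genes was called without any 1 mouse. They were picked for likeness to Tlr13 or Tlr4 on these same arrays, so their shifts and calls follow from that choice.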

How the data were processed

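Per the labels' protocols, Trizol was used on the sorted bone marrow cells, and the total RNA was biotin-labelled with whole-transcript reagents. The deposited table holds the authors' log2 values, and Affymetrix Expression Console and limma are named per the submitters' processing notes; their versions, the background correction and the normalization were not given in the sources used here. That the scale is log2 was judged by the range of the values. Arrays have no read depth, so the number of mice limits the precision. The platform annotation gave 1 symbol to 21789 of 35556 probe sets, several to 1621 and none to 12146; 21698 were matched to RefSeq (GRCm38.p6) by gene number, with 0 symbols changed. Per gene the probe set of highest mean over 6 arrays was kept, and the dimmest 30% were left out. Groups follow the sample titles. The groups, of separate mice, were compared with limma 3.58.1 (R 4.3.3), lmFit and eBayes with trend, no covariates, Benjamini-Hochberg over 13956 genes at 0.05, two-sided. SE and 95% intervals are of that fit. The fit was tested on simulated data. The members and lists were chosen with earlier results of these data known. Named were all members, Tlr3, Tlr12, Myb and the sort markers, up to 6 called genes per pathway list (otherwise those of smallest p), up to 4 per marker list, and the 3 genes nearest to the most changed members, of which 1 is not reported here. Ly96 and Trim30a, neither of them called, were named outside these rules. List genes without a probe set of exactly 1 symbol, such as Tlr5 and Tlr11, are not analysed here. Alternatives were a replicate block, each mouse left out, quantile normalization, median centring, no filter or a filter at 50%, the mean of probe sets, no trend and array weights.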

Additional observations from a re-analysis of the deposited data

How the results depend on the processing

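No called member changed direction in the 14 alternatives, and Tlr4, Tlr13 and Myd88 were called in each. Over all comparisons of a member with an alternative, 120 of 138 kept their side of the threshold, 15 lost the call and 3 gained it. Tlr8 and Cd14 were not tested with the filter at 50%, which removed them. The same replicate numbers name different mice, and the correlations of the deviations of same-numbered mice were 0.29, -0.19 and -0.08. With the replicate number as a block, 5 members rose and 1 fell as before, adaptors and kinases had 0 rises, NF-kB and IRF factors 1 rise, negative regulators 0 falls, other pattern receptors 1 rise and 2 falls, and neutrophil markers 2 rises. After quantile normalization other Toll-like receptors had 1 rise, adaptors and kinases 0 rises and 2 falls, negative regulators 2 falls and neutrophil markers 2 rises. After median centring 1433 genes rose, other Toll-like receptors had 1 rise, accessory proteins 2 falls, NF-kB and IRF factors 1 rise, negative regulators 0 falls and neutrophil markers 2 rises. Without the filter, accessory proteins and other pattern receptors had 1 rise each, adaptors and kinases 0 rises and B cell markers 1 fall. With the filter at 50%, which removes genes, other Toll-like receptors had 0 falls, cytokines 1 rise, monocyte markers 1 fall, neutrophil markers 2 rises, plasmacytoid markers 1 rise, and B cell markers 0 rises and 1 fall. With the mean of probe sets neutrophil markers had 2 rises. Without the trend adaptors and kinases had 0 rises and B cell markers 1 fall. With array weights, whose estimation stopped before it converged, 2351 genes rose and 1561 fell, and 2 members fell. Rises were then 1 for other Toll-like receptors, 4 for accessory proteins, 2 for adaptors and kinases, 3 for NF-kB and IRF factors, 1 for the IL-1 family and 2 for neutrophil markers. Falls were 7, 3 and 1 for accessory proteins, kinases and NF-kB and IRF factors, 4 for negative regulators, 3 for other pattern receptors, 5 for monocyte, 8 for neutrophil, 1 for plasmacytoid and 5 for B cell markers.

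With 1 mouse left out, 296 to 2397 of all genes rose and 367 to 1397 fell, and 2 to 5 members rose and 1 to 3 fell. Accessory proteins had 1 to 4 rises and 1 to 7 falls, adaptors and kinases 0 to 2 and 1 to 3, NF-kB and IRF factors 0 to 2 rises, and negative regulators 0 to 1 and 0 to 3. Cytokines had 1 to 3 rises, the IL-1 family 0 to 1 rises and 1 to 3 falls, and other pattern receptors 0 to 2 and 1 to 3. Monocyte markers had 2 to 4 rises and 2 to 5 falls, neutrophil markers 1 to 2 and 4 to 7, plasmacytoid markers 1 to 2 rises and B cell markers 0 to 1 and 1 to 4. The cause of these shifts was not tested. Dim probe sets, such as that of Il1b, limit what can be read from the cytokine genes.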
